A study of Mus musculus with 6 samples.

Results

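Transcripts of 10 genes of Wnt signalling were read in mouse embryonic stem (ES) cells, and activity of the pathway itself was not measured. They were the antagonist genes Sfrp1, Sfrp2, Frzb, Dkk1, Dkk3 and Apcdd1, and the Wnt target genes Axin2, Nkd1, Lef1 and Sp5. The set was chosen by measured values of this same comparison: Sfrp1 was selected on its much lower signal in FLAG-CTCFL cells, and the others to set beside it. Their values are therefore given as a description, without a test. All 10 were measured, out of 19937 genes in the series, each by 1 probe set of the array. The study compared 3 arrays of ES cells that carried a stably integrated FLAG-tagged mouse CTCFL vector with 3 arrays of ES cells that carried a control vector. Both groups came from male 46C cells, a 129P2/OlaHsd line with GFP knocked into Sox1 that is described as cloned, and both grew in 10% serum on coated plates under 1 µg/ml puromycin. CTCFL is a paralog of the chromatin-binding protein CTCF and is normally restricted to male germ cells. The promoter of the vector and the number of separate transfected lines behind each group are not stated, so the spread between arrays, on which all p-values rest, may be partly technical.

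Wnt proteins are secreted lipid-modified ligands that bind Frizzled receptors together with the co-receptors LRP5 or LRP6. Binding stops a cytoplasmic complex of Axin, APC and the kinase GSK3 from marking β-catenin for destruction, and β-catenin then acts with TCF/LEF factors on target genes. Secreted Frizzled-related proteins (SFRPs) bind Wnt ligands outside the cell, Dickkopf proteins (DKKs) bind LRP5 and LRP6, and several target genes, Axin2 and Nkd1 among them, code for inhibitors that feed back on the pathway. In mouse ES cells, Wnt signalling is known to support self-renewal, in part by relieving repression through TCF7L1.

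On the log2 scale the deposited arrays had medians of 7.92 to 7.99, which do not measure array quality because the values were already processed. Pearson's r over the genes was 0.997 to 0.998 within the FLAG-CTCFL group, 0.998 to 0.999 within the control group and 0.983 to 0.985 between groups. FLAG-CTCFL replicate 2 had the smallest spread of values (SD 1.41, against 1.44 to 1.47 on the other arrays). Ctcfl itself read 11.2 to 11.3 in FLAG-CTCFL cells and 7.70 to 7.89 in control cells, so the labels held. All 8 ES cell markers that were looked up, Pou5f1, Sox2, Nanog and Esrrb among them, lay above background on every array. Background was taken from 1190 genes for olfactory and vomeronasal receptors, which ES cells are not known to use: a gene counted as above it where its signal exceeded their 95th percentile on that array, 7.62 to 7.70. Over all genes, 30.9% passed limma's test (12.5% higher and 18.4% lower in FLAG-CTCFL cells), and the 3 arrays of one group lay wholly above or below those of the other for 41.3% of genes, 18.3% higher and 23.0% lower.

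Promoter sequences were searched for letters of the TCF/LEF site near the start of the genes, and binding itself was not measured. The RefSeq table (GRCm38.p6) of 250 bases before to 50 bases after each start held 7 of the 10 genes, all but Sfrp1, Dkk3 and Apcdd1. The 3 target genes whose arrays did not overlap between groups are shown, each on its plus strand, with matches in capitals to CTTTGAT or CTTTGAA, forms of the TCF/LEF site, or to AGGGGGC, a core of the CTCF motif that CTCFL shares. Both strands were searched.
Sp5, chr2:70474673-70474972: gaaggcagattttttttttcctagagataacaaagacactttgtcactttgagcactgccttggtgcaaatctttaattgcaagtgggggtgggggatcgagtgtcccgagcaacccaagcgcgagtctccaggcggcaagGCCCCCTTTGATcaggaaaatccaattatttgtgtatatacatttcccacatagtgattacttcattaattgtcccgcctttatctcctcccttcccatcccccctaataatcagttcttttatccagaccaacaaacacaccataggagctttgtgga
Axin2, chr11:108920099-108920398: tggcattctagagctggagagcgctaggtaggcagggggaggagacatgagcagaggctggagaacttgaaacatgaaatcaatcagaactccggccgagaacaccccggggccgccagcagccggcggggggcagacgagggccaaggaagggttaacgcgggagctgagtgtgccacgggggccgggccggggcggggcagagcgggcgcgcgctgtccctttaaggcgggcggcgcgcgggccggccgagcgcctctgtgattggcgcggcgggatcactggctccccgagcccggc
Lef1, first of 4 annotated starts, chr3:131110047-131110346: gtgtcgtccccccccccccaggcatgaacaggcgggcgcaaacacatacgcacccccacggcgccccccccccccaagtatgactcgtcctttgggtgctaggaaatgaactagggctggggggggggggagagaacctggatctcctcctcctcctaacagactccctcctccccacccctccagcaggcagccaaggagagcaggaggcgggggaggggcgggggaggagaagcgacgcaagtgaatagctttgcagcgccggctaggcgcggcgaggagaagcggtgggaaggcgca

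The Sp5 promoter held CTTTGAT on the plus strand at -104 to -98 from the start, and the reverse complement of AGGGGGC at -109 to -103. The 2 matches overlap in the run of capitals above. Axin2 and Lef1 had neither motif in these windows, and no match was found at the other 3 Lef1 starts. Of the other genes, Dkk1 had CTTTGAA at -117 to -111, and Sfrp2, Frzb and Nkd1 had no match. Such matches are common by letters alone: CTTTGAT was present in 3.73% of all 32851 promoters, CTTTGAA in 5.14%, and AGGGGGC in 10.6%. The windows also differed in CpG content. Axin2 had 31 CpG dinucleotides, Sfrp2 22, Frzb 20 and the first Lef1 start 18, whereas Dkk1 had 9 and Sp5 and Nkd1 had 6 each, against a median of 7 over all promoters.

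Sfrp1 codes for a secreted protein that binds Wnt ligands and Frizzled receptors. Its log2 signal was 9.25, 9.19 and 9.16 on the FLAG-CTCFL arrays, and 11.49, 11.64 and 11.69 on the control arrays. Every FLAG-CTCFL array lay below every control array, with a gap of 2.25 between the nearest arrays of the groups. The mean was 9.20 ± 0.04 in FLAG-CTCFL cells and 11.61 ± 0.10 in control cells (SD, n = 3 each), a difference of -2.41 ± 0.05 (SE), or a 5.31-fold lower signal. Sfrp1 stayed above background on all 3 FLAG-CTCFL arrays, so a lower level and not a loss of signal was measured. In RNA of whole cultures, fewer cells that make a transcript and less transcript per cell cannot be told apart.

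**Figure D1:**
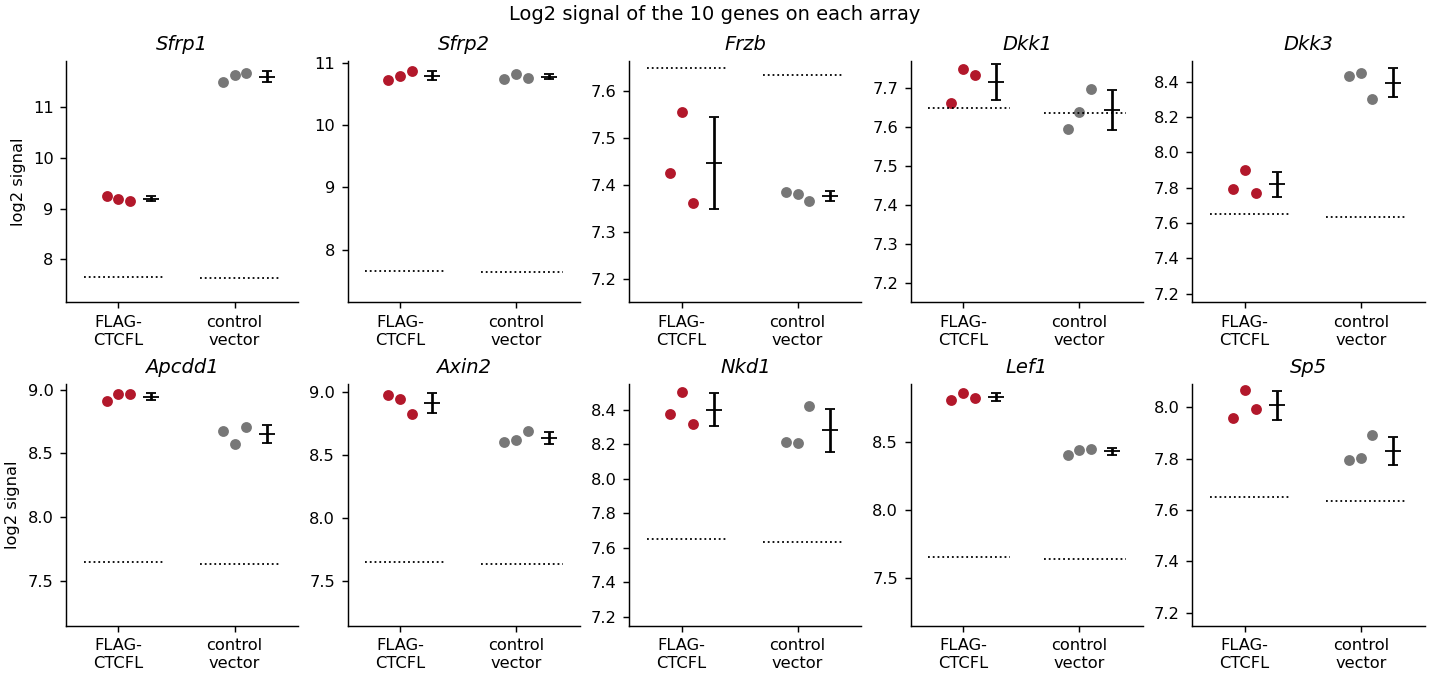
Log2 signal (vertical axis, a separate scale in each panel) of the 10 genes on the 3 FLAG-CTCFL arrays (red, left) and the 3 control vector arrays (grey, right), with the group mean ± SD as a black bar and the group's mean background level as a dotted line. Sfrp1 and Dkk3 lie lower in FLAG-CTCFL cells, Apcdd1, Axin2, Lef1 and Sp5 lie higher, Sfrp2, Dkk1 and Nkd1 overlap, and Frzb lies below background on all 6 arrays.

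The measured genes around Sfrp1 are described next. Sfrp1 had the lowest difference of all 19937 genes, so none of them could have fallen as far. Sfrp1 lies on chromosome 8, and the 3 measured genes on one side of it, Golga7, Gins4 and Gpat4, differed by -0.09, 0.22 and 0.10, of which only Gins4, a subunit of the replicative helicase complex GINS, passed limma's test (adjusted p = 0.00329). On the other side, Zmat4, Tcim and Ido2 differed by -0.07, -0.06 and 0.01, and none of the 3 passed. Among the 20 nearest measured genes, 2 were higher and 3 lower past the threshold, with differences of -0.34 to 0.22 and a median of -0.0088. The genes whose pattern over the 6 arrays was most like that of Sfrp1 were Grb10, Uprt, Klhl13, Ndrg2 and Trim13. Likeness was measured as the root mean square difference of the values after each gene's own mean was subtracted. That distance was 0.0553 for Grb10, an adaptor of the insulin receptor, and 0.142 to 0.199 for the other 4, whose differences were -2.14 to -2.04. That of Grb10 was -2.34. These genes held ranks 2 to 6 of the lowest differences over all genes, next after Sfrp1. The likeness is thus mostly one of the size of the group difference, and no shared control is read from it.

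**Figure D2:**
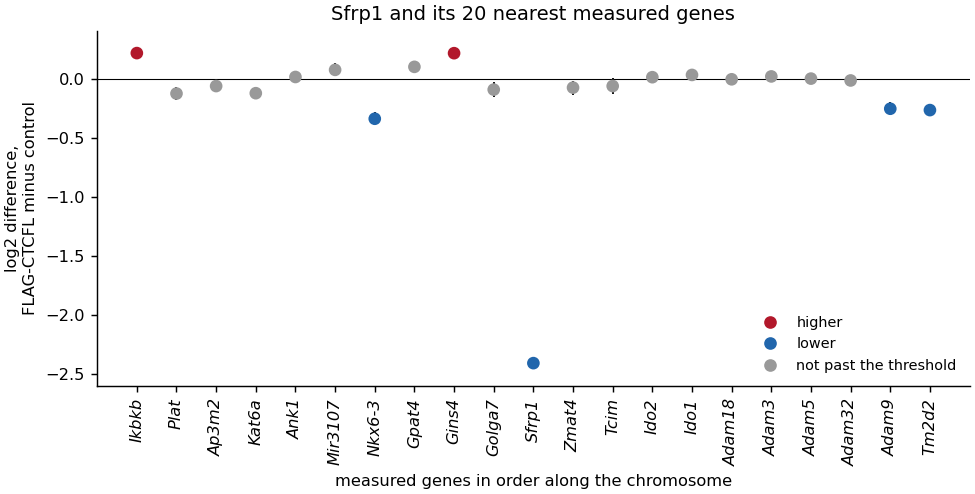
Log2 difference (FLAG-CTCFL minus control vector, ± SE, n = 3 arrays per group) of Sfrp1 and of the 10 measured genes on each side of it, in order along the chromosome. Points are red where the gene was higher and blue where it was lower past the limma threshold. Sfrp1 stands at -2.41, and its 20 neighbours lie between -0.34 and 0.22.

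The other 2 SFRP family genes among the 10 had no such difference. Sfrp2, whose product also binds Wnt ligands, read 10.73, 10.79 and 10.87 on the FLAG-CTCFL arrays and 10.75, 10.83 and 10.77 on the control arrays. The groups overlapped, with a difference of 0.02 ± 0.05. Frzb, also called Sfrp3, read 7.43, 7.56 and 7.36 in FLAG-CTCFL cells and 7.38, 7.38 and 7.37 in control cells. All 6 values were under the background level, so no fold is given for it.

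Of the Dickkopf genes, Dkk3 had arrays that were apart between groups and Dkk1 did not. Dkk1, an inhibitor of LRP5 and LRP6 that is itself a Wnt target, read 7.66, 7.75 and 7.73 on the FLAG-CTCFL arrays and 7.59, 7.64 and 7.70 on the control arrays. These values overlap and stand close to background, which 1 control array did not exceed (difference 0.07 ± 0.05). Dkk3, the most divergent Dickkopf gene, whose role in Wnt signalling is not settled, read 7.79, 7.90 and 7.77 in FLAG-CTCFL cells and 8.43, 8.45 and 8.30 in control cells. All FLAG-CTCFL arrays lay below all control arrays, by at least 0.40, and the difference was -0.57 ± 0.05, a 1.49-fold lower signal. Its FLAG-CTCFL values were above background but close to it. Among its 20 nearest measured genes on chromosome 7, 2 were higher and 2 lower past limma's threshold, with differences of -0.77 to 0.22 and a median of 0.06.

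Apcdd1, a membrane-bound antagonist and a known Wnt target, went the other way from Sfrp1 and Dkk3. Its signal was 8.91, 8.96 and 8.96 in FLAG-CTCFL cells and 8.67, 8.57 and 8.71 in control cells. The groups did not overlap, and the difference was 0.29 ± 0.05, or 1.23-fold higher. Over the 5 antagonist genes besides Sfrp1 the median difference was 0.07, with 1 gene higher and 1 lower without overlap of the arrays. This median includes Frzb, which had no signal above background.

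All 4 target genes had a higher mean in FLAG-CTCFL cells, by 1.09-fold to 1.32-fold. Lef1, a TCF/LEF factor whose gene is itself a target, read 8.81, 8.86 and 8.82 on the FLAG-CTCFL arrays and 8.40, 8.44 and 8.45 on the control arrays. Its groups were the most clearly apart of the 4, with a gap of 0.36 and a difference of 0.40 ± 0.04 (1.32-fold). Axin2, the feedback scaffold that is widely used as a readout of the pathway, read 8.97, 8.94 and 8.82 in FLAG-CTCFL cells and 8.60, 8.62 and 8.69 in control cells. The groups were apart by 0.13, and the difference was 0.28 ± 0.05 (1.21-fold).

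Sp5, a zinc finger gene activated directly by β-catenin, read 7.96, 8.07 and 7.99 in FLAG-CTCFL cells and 7.79, 7.80 and 7.89 in control cells. The groups were apart by only 0.07, and the difference was 0.18 ± 0.05. The control values of Sp5 were above background but close to it. Nkd1, an inhibitor that binds Dishevelled, read 8.38, 8.50 and 8.32 in FLAG-CTCFL cells and 8.21, 8.21 and 8.42 in control cells. Here the groups overlapped, because control replicate 3 lay above 2 of the FLAG-CTCFL arrays, and the difference was 0.12 ± 0.06. The median over the 4 targets was 0.23, against 0.0037 over all genes. This is a description only, since the 4 were chosen with their values known.

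Of the 10 genes, 4 lay higher and 2 lower without overlap of the arrays, beside the 18.3% and 23.0% of all genes given above. These counts, and the places among all genes given next, follow from how the genes were chosen, and nothing is read from them. All genes here include 5123 that were above background on no array. The differences stood at the edges of the range of all genes for 3 of them. Sfrp1 had the lowest difference of all 19937 genes. Dkk3 lay at the 2.87th percentile and Lef1 at the 98.0th. Apcdd1 and Axin2 followed at 96.1 and 95.5, and Sp5 and Nkd1 at 90.8 and 85.1. Sfrp2 stood at 55.2.

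**Figure D3:**
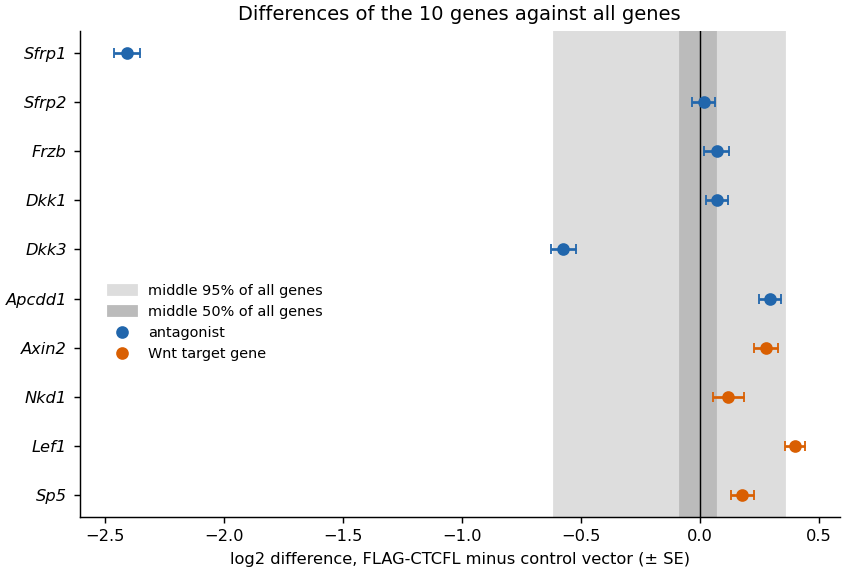
Log2 difference (horizontal axis, FLAG-CTCFL minus control vector, ± SE, n = 3 arrays per group) of the 6 antagonist genes (blue) and 4 target genes (orange). The shaded bands hold the middle 50% and 95% of all 19937 genes. Sfrp1 at -2.41 lies far outside the wider band, which runs from -0.61 to 0.36, and Lef1 at 0.40 lies just above it.

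Markers of other cells that a culture could hold were read beside these values, since Sfrp1 and Dkk3 are also active in fibroblasts and Lef1, Sp5 and Axin2 in the primitive streak. Among 10 fibroblast markers 1 was higher, Col1a1 (0.16, limma adjusted p = 0.0314), and 2 were lower, Thy1 (-0.48) and Fbln1 (-0.64). The call of Col1a1 was lost without FLAG-CTCFL replicate 2 (0.0885) or 3 (0.0551) or control vector replicate 1 (0.127) or 2 (0.0959). Their summed linear signal was 2963 to 3102 on the FLAG-CTCFL arrays and 3393 to 3498 on the control arrays, and Dcn, Lum and Postn were not above background on any array. Of 8 markers of primitive streak and mesoderm 3 were higher and none lower: Eomes (0.61), Mixl1 (0.31) and Kdr. Mixl1 was above background on 2 of 3 control arrays and Kdr on no control array. Kdr did not pass without FLAG-CTCFL replicate 1 (0.0544) or control vector replicate 1 (0.0911) or 3 (0.0697). Their sum was 2144 to 2285 in FLAG-CTCFL cells and 1934 to 1995 in control cells. Other lists moved too. Of 8 primitive endoderm markers 3 were higher and none lower, Pdgfra (0.54), Dab2 (0.19) and Gata6 (0.14), summing to 1971 to 2089 in FLAG-CTCFL cells and 1866 to 1914 in control cells. Pdgfra was above background on 2 of 3 control arrays. The call of Dab2 was lost with the mean of its probe sets (0.321). That of Gata6 was lost with the replicate block (0.0558), after quantile normalization (0.0686), and without FLAG-CTCFL replicate 1 (0.0868) or 3 (0.145) or control vector replicate 1 (0.0553), 2 (0.0681) or 3 (0.194). Of 7 neural markers Nes (0.68) and Pax6 (0.32) were higher and Map2 lower (-0.44), with sums of 2296 to 2372 in FLAG-CTCFL cells and 2216 to 2354 in control cells. Of 7 trophoblast markers Gata3 was higher (0.33) and Tfap2c (-0.73) and Ets2 (-0.60) were lower, with sums of 2244 to 2370 in FLAG-CTCFL cells and 2700 to 2823 in control cells. Sox17, Afp and Zic1 were not above background on any array. ES cell markers moved as well, with 1 of 8 higher (Sall4, 0.21) and 4 lower (Nanog, Esrrb, Dppa5a and Sox2, -0.62 to -0.21), and summed to 41406 to 45196 in FLAG-CTCFL cells and 51226 to 51846 in control cells. A sum is weighted by its brightest genes, here Fbln1 for fibroblasts and Ets2 and Tfap2c for trophoblast. The median difference was 0.07 over the fibroblast markers and 0.04 over the trophoblast markers, though both sums were lower in FLAG-CTCFL cells. It was 0.09 for primitive streak and mesoderm, 0.06 for primitive endoderm, 0.007 for neural and -0.16 for ES cell markers. Over all genes 12.5% were higher and 18.4% lower. The part of any of these cells in the Wnt gene values was not tested.

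The other genes of the pathway were taken from 8 lists and tested with limma, with adjustment over all genes. The lists were chosen with earlier results of these data known, so the shares of each list that passed are a description. Of 126 measured, 21 rose and 29 fell, or 39.7% in all, beside 30.9% of all genes. Of those genes with signal above background on at least 1 array, 42.6% of the pathway genes and 40.6% of all genes passed. After quantile normalization of the arrays 34 pathway genes were higher and 25 lower, so which direction prevailed hung on the scaling. Of the 14 pathway genes on chromosomes 6, 14 and X, none rose and 8 fell. Of all genes on these chromosomes, 108 of 1101 rose and 241 fell on chromosome 6, 44 of 702 rose and 260 fell on chromosome 14, and 76 of 742 rose and 230 fell on chromosome X. Without these 14 pathway genes 21 were higher and 21 lower. The median difference of the pathway genes was 0.02. Some listed genes, Tcf7 among them, were not analysed here.

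**Figure D4:**
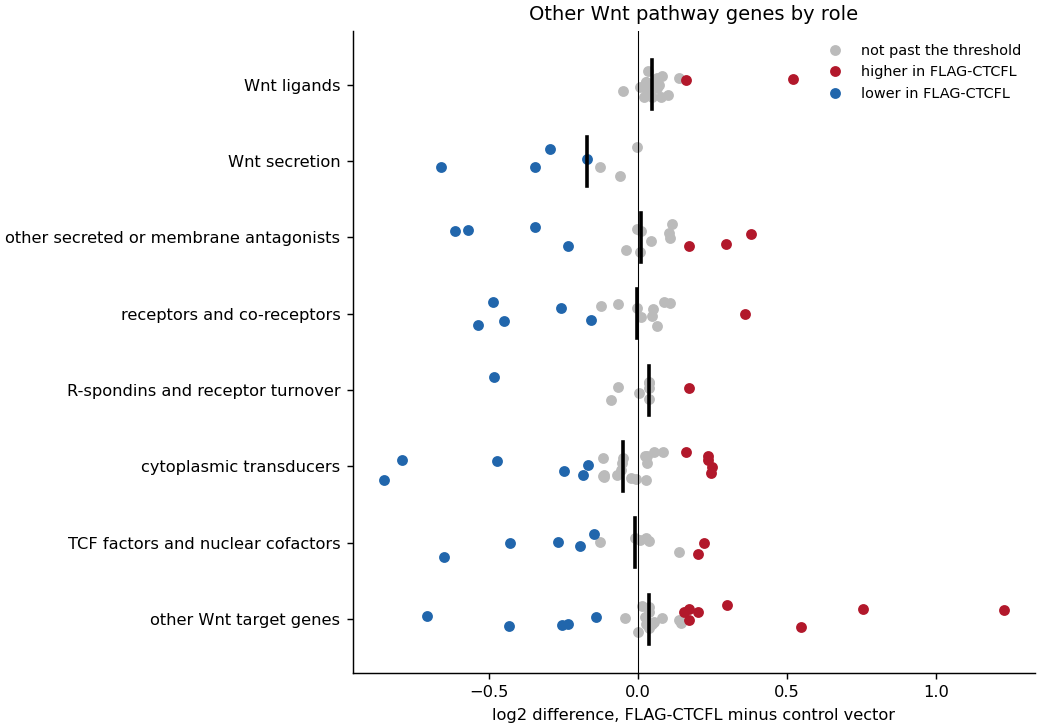
Log2 difference (horizontal axis, FLAG-CTCFL minus control vector) of the other pathway genes in 8 lists by role, with 1 point per gene, red where higher and blue where lower past the limma threshold, and a black bar at the list median. Wnt secretion has its median furthest from 0, at -0.17. Among the points, Ccn1 has the largest rise (1.23) and Dact1 the largest fall (-0.85).

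The SFRP family genes outside the 10, Sfrp4 and Sfrp5, fell in the same cells as Sfrp1. Sfrp4 read 8.24, 8.19 and 8.11 in FLAG-CTCFL cells and 8.83, 8.85 and 8.57 in control cells (-0.57 ± 0.07, limma adjusted p = 2.45e-05). Sfrp5 read 7.90, 8.03 and 7.71 in FLAG-CTCFL cells and 8.44, 8.44 and 8.59 in control cells (-0.61 ± 0.07, adjusted p = 1.97e-05). For neither gene did the groups overlap. In the list of other antagonists 3 of 15 rose and 4 fell. Among the 12 above background on at least 1 array 58.3% passed, beside 40.6% of all such genes. Shisa2, which holds back maturation of Frizzled receptors (-0.35), and Notum, a secreted enzyme that removes the lipid from Wnt proteins (-0.24), were the other falls. Kremen2 and Kremen1, receptors for DKK1, rose by 0.38 and 0.17, and Igfbp4 rose by 0.30. Shisa2 lies on chromosome 14 among genes that were lower too, with a median of -0.27 over its 20 nearest measured genes and 12 of them past the threshold.

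Of 19 ligand genes measured, 2 rose and none fell, 10.5% of the list beside 30.9% of all genes. Among the 17 above background on at least 1 array 11.8% passed, beside 40.6% of all such genes. Wnt8a, a ligand of the primitive streak, read 8.40, 8.35 and 8.41 in FLAG-CTCFL cells and 7.91, 7.79 and 7.90 in control cells, without overlap, and rose by 0.52 ± 0.05 (adjusted p = 1.89e-06). The control values of Wnt8a were above background but close to it. Wnt7b rose by 0.16, a call lost without control vector replicate 1 (adjusted p = 0.0826). Wnt5a and Wnt8b, 2 of the 19, were not above background on any array.

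Of 7 genes for the release of Wnt proteins 4 fell and none rose, where 18.4% of all genes fell. All 7 were above background on at least 1 array, and 57.1% passed, beside 40.6% of all such genes. Porcn, the acyltransferase that attaches the lipid without which Wnt proteins are not secreted, read 9.98, 9.93 and 10.07 in FLAG-CTCFL cells and 10.58, 10.71 and 10.67 in control cells (-0.66 ± 0.05, adjusted p = 4.65e-07). Wls, the carrier of lipid-modified Wnt proteins, fell by 0.35 (adjusted p = 5.03e-05), and the retromer subunit Vps35, which recycles that carrier, fell by 0.30. Vps26a, another retromer subunit, differed by -0.17 at an adjusted p of 0.0443. That call was lost after quantile normalization (0.0909), after subtraction of array medians (0.130), with a variance trend (0.0502), and without FLAG-CTCFL replicate 2 (0.134) or 3 (0.0936) or control vector replicate 1 (0.151) or 2 (0.149). The retromer gene Vps29 (-0.06), Snx3 (-0.0028) and Tmed5 (-0.12) did not pass, though Tmed5 did with array weights (0.0121) and without FLAG-CTCFL replicate 1 (0.0134). Porcn is X-linked. Among its 20 nearest measured genes 4 were higher and 3 lower, with differences of -0.31 to 0.40.

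Both LRP co-receptor genes fell. Lrp5 read 9.37, 9.42 and 9.43 in FLAG-CTCFL cells and 9.89, 9.93 and 9.85 in control cells (-0.49 ± 0.04, adjusted p = 1.81e-06), and Lrp6 read 9.95, 10.00 and 10.06 in FLAG-CTCFL cells and 10.44, 10.49 and 10.42 in control cells (-0.45 ± 0.05, adjusted p = 5.75e-06). No array of one group reached the range of the other for either gene. Of the 15 receptor and co-receptor genes 5 fell and 1 rose. All 15 were above background on at least 1 array, and the 40% that passed were near the 40.6% of all such genes. Among the Frizzled receptors Fzd3 (-0.54) and Fzd6 (-0.26) fell and Fzd2 rose (0.36), whereas Fzd5 (-0.07) and Fzd7 (0.05) did not pass. Fzd8 passed at -0.16, a call lost after subtraction of array medians (0.0616) and without FLAG-CTCFL replicate 1 (adjusted p = 0.130) or 3 (0.165) or control vector replicate 1 (0.0689), 2 (0.0988) or 3 (0.173). Lrp6 lies on chromosome 6 and Fzd3 on chromosome 14, with medians of -0.14 and -0.25 over their 20 nearest measured genes. In the list of R-spondins, their receptors and the ligases that remove Frizzled, Lgr4, an R-spondin receptor, fell by 0.48 (adjusted p = 7.43e-05). Lgr5 passed with a higher value but lay under background on all 6 arrays and lost its call without control vector replicate 1 (0.0585). The other 7 genes, Znrf3 and Rnf43 included, did not pass. In this list 22.2% passed, beside 30.9% of all genes.

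Inside the cell, 5 core genes, for β-catenin and its destruction complex, did not pass the test on the values as deposited. Ctnnb1, the gene for β-catenin, read 12.90, 12.72 and 12.83 in FLAG-CTCFL cells and 12.75, 12.83 and 12.77 in control cells, a difference of 0.03 ± 0.05 that did not pass (adjusted p = 0.727). Apc (-0.11), Axin1 (-0.05), Gsk3a (0.03) and Gsk3b (0.08) did not pass either. After quantile normalization Gsk3a was at 0.12 and Gsk3b at 0.16, past the threshold (0.0469 and 0.0150). Gsk3b also passed with array weights (0.0157) and without FLAG-CTCFL replicate 2 (0.0149), and Apc with array weights (0.00787). Of 27 cytoplasmic genes 5 rose and 6 fell. All 27 were above background on at least 1 array, and the 40.7% that passed were near the 40.6% of all such genes. Dact1, an inhibitor that binds Dishevelled, had the largest fall of the pathway lists: it read 8.12, 8.09 and 8.09 in FLAG-CTCFL cells and 8.96, 9.03 and 8.87 in control cells (-0.85 ± 0.05, adjusted p = 2.95e-08). Its relative Dact2 fell by 0.47, while Dvl1 and Dvl3, which code for Dishevelled proteins, rose by 0.25 each.

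Amer1, an X-linked partner of APC, fell by 0.79 among neighbours with a median of -0.38. Smaller falls were measured for Frat1 (-0.25) and the casein kinase gene Csnk1e (-0.18), and rises for Csnk1g1 (0.24) and Nkd2, the paralog of Nkd1 (0.23). The calls of Btrc (-0.17), a subunit of the ligase that marks β-catenin, and Tnks (0.16), which destabilises Axin, each hung on single arrays. That of Btrc was lost after quantile normalization (0.0640) or subtraction of array medians (0.0929), and without FLAG-CTCFL replicate 2 (adjusted p = 0.0726) or 3 (0.0973) or control vector replicate 2 (0.149) or 3 (0.0836). That of Tnks was lost after subtraction of array medians (0.0596) or with a variance trend (0.0614), and without FLAG-CTCFL replicate 1 (0.0839) or 3 (0.236) or control vector replicate 1 or 2 (0.122 each) or 3 (0.108).

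Of the TCF genes besides Lef1, both that were measured fell. Tcf7l1, the main repressor of Wnt targets in ES cells, read 9.87, 9.75 and 9.67 in FLAG-CTCFL cells and 10.08, 10.28 and 10.22 in control cells (-0.43 ± 0.06, adjusted p = 0.00013). Tcf7l2 fell by 0.27 (adjusted p = 0.00042). Among 13 TCF and cofactor genes 5 fell and 2 rose. All 13 were above background on at least 1 array, and 53.8% passed, beside 40.6% of all such genes. Chd8, a chromatin remodeller that binds β-catenin, fell by 0.65 and lies on chromosome 14, where 9 of its 20 nearest measured genes were lower too. Tcf7l1 lies on chromosome 6, and of its 20 nearest measured genes 6 were higher and 6 lower, with differences of -0.91 to 0.42. Bcl9l, a β-catenin cofactor, rose by 0.22. Its paralog Bcl9 passed at -0.15, Pygo1 at -0.19 and Ep300 at 0.20. Pygo1 did not pass without control vector replicate 2 (adjusted p = 0.0584). Ep300 did not pass without FLAG-CTCFL replicate 1 (0.0796) or 3 (0.104) or control vector replicate 1 (0.103) or 3 (0.0709). Bcl9 did not pass with the replicate block (0.0549), after quantile normalization (0.325), after subtraction of array medians (0.0965), or without FLAG-CTCFL replicate 2 (0.0575) or 3 (0.134) or control vector replicate 2 (0.156) or 3 (0.123).

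Target genes outside the 4 described above changed in both directions, with 8 of 27 higher and 5 lower and a median of 0.04. Among the 23 above background on at least 1 array 52.2% passed, beside 40.6% of all such genes. Ccn1, a matricellular gene that is also a target of YAP, read 10.06, 9.93 and 10.05 in FLAG-CTCFL cells and 8.85, 8.77 and 8.74 in control cells (1.23 ± 0.05, adjusted p = 1.62e-09). Fst, which codes for an activin-binding protein, rose by 0.76 and was above background on 1 of 3 control arrays, and Id2, an inhibitor of basic helix-loop-helix factors, rose by 0.55. Vegfa (-0.71), Bambi (-0.25) and Notum (-0.24) fell, and Ccnd1, which codes for cyclin D1, read 9.90, 9.97 and 10.00 in FLAG-CTCFL cells and 10.32, 10.42 and 10.43 in control cells (-0.43 ± 0.05, adjusted p = 1.12e-05). Many of these genes are also controlled by other pathways. Myc (0.14), Znrf3 (0.04), Rnf43 (0.04) and Ascl2 (0.04) did not pass. Myc did pass after quantile normalization (0.22, adjusted p = 0.00544), with array weights (0.00944) and without FLAG-CTCFL replicate 2 (0.22, adjusted p = 0.0135).

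The homeobox targets Cdx2 and Cdx1 were higher. Of the 20 nearest measured genes of Cdx2, 8 were higher too and 1 was lower, with a median of 0.11. Cdx2 was not above background on any control array, so the size of its rise is not known (adjusted p = 0.00512). Its means were 7.86 in FLAG-CTCFL cells and 7.56 in control cells. The first is 1.17-fold the mean background level of the control arrays, a value given without an error. Cdx1 passed at 0.20, a call lost without FLAG-CTCFL replicate 2 (0.0772) or control vector replicate 1 (0.0667) or 2 (0.134). Cd44, also under background in control cells, passed with means of 7.75 in FLAG-CTCFL cells and 7.59 in control cells (adjusted p = 0.0196). The first is 1.08-fold the mean background level of the control arrays, again without an error. Cd44 did not pass without FLAG-CTCFL replicate 3 (0.0997) or control vector replicate 3 (0.0875). Msx2 (0.17) did not pass without FLAG-CTCFL replicate 3 (0.0611) or control vector replicate 1 (0.0695). Tnfrsf19 (-0.14), on chromosome 14, did not pass after quantile normalization (0.0986), after subtraction of array medians (0.0761), with array weights (0.0668), or without FLAG-CTCFL replicate 1 (0.139) or control vector replicate 1 (0.0858), 2 (0.144) or 3 (0.111). The 20 nearest measured genes of Tnfrsf19 had a median of -0.27, and 14 of them were lower past the threshold. Across the pathway lists, 37 of the 50 calls, 14 higher and 23 lower, held under every alternative that could be run on them.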

How the data were processed

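The deposited table holds 1 log2 signal per probe set (34760) and array for 6 Affymetrix Mouse Gene 1.0 ST arrays, made from 200 ng of total RNA each per the labels; values ran from 5.73 to 14.56, as log2 signals do. How the authors corrected background, summarised probes and normalized is not given in the sources used here, and a shift shared by all genes would not be seen if that scaling removed it. The platform annotation gave 1 gene symbol to 21640 probe sets, several to 1321 and none to 11799, and 21553 of them were matched by Entrez ID to current symbols of RefSeq's GRCm38.p6 annotation. The brightest probe set of each gene was kept. The test was limma's moderated two-sided test (version 3.58.1, R 4.3.3) with a term for group alone. P-values were adjusted by Benjamini-Hochberg over 19937 genes, with 0.05 as the threshold. A difference is the FLAG-CTCFL mean less the control mean, and its SE is the moderated one. The procedure was tested on simulated data.

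The members and lists were chosen with earlier results of these data known. Named are the 10 genes, Ctcfl, Ctnnb1 and the TCF genes, per list up to 8 genes past the threshold by size, the 3 nearest genes on each side of Sfrp1, the 5 genes most like it, and the markers. Pathway genes named without passing or beyond 8 in a list, and the windows of 20 neighbours, were added after their values were seen. The number of arrays limits the precision. No filter on dim genes was used. As alternatives, a replicate block, other scalings, a filter on dim genes, the mean of probe sets, another variance model, array weights and leaving out each array were tried. The labels name no pairing of arrays by replicate number, and 3 arrays per group are too few to show whether there was one. No batch was tested, as scan dates were not part of the data used. Figures were drawn with matplotlib 3.10.9.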

Additional observations from a re-analysis of the deposited data

How the results depend on the processing

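Under the 13 alternatives set out for each result the Sfrp1 difference lay between -2.47 and -2.32 (-2.32 after quantile normalization), that of Dkk3 between -0.62 and -0.55, Apcdd1 0.26 and 0.35, Axin2 0.20 and 0.33, Nkd1 0.05 and 0.19, Lef1 0.38 and 0.44, and Sp5 0.15 and 0.21. Sfrp2 (-0.02 to 0.10) and Frzb (-0.0023 to 0.11) changed sign around 0. The median over the 4 targets was 0.18 to 0.26. Higher genes numbered 2496 in all and 21 in the pathway lists, 3943 and 34 after quantile normalization, and 4195 and 32 with array weights; the share of higher genes among changed ones was 40.5%, 54.4% after quantile normalization. The cause was not tested. With 1 array left out, 41 to 53 pathway genes changed. With the replicate block 49 pathway genes changed, against 50 without it, and Bcl9 alone lost its call; deviations of arrays with the same number correlated at 0.134, -0.204 and -0.0208. The count without genes of chromosomes 6, 14 and X (42 pathway genes changed) was added after the data were seen. Signal near background limits what can be read from Frzb, Dkk1 and the 11 pathway genes above background on no array. It also limits other genes, among them Cdx2 and Cd44, above it on no control array, and Fst, above it on 1 of 3. The FLAG-CTCFL values of Dkk3 and the control values of Sp5 were above background but close to it.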
